A study of Drosophila melanogaster with 4 samples.

Results

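The peaks described here are the 329 Myc peaks that lie next to the centromere on 4 assembled chromosome arms of Drosophila melanogaster, out of 8614 peaks in the whole list. They were taken by position alone. On 2L a peak belonged to this set if it started at or above 20900000, on 3L at or above 22500000, on X at or above 20400000, and on 3R, whose centromere lies at the low end, at or below 2000000. Each of these stretches, called windows below, is about 2 Mb long. The 2L window held 100 peaks, that of 3L 36, that of 3R 139 and that of X 54. Together they made up 5.23% of the 6291 peaks of these arms and 3.82% of the list. The other 5962 peaks of the same arms are called the rest. The arm 2R has no window in this set and was not analysed here. All coordinates are of FlyBase Release 5 and count from 1.

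The study used chromatin immunoprecipitation followed by sequencing (ChIP-seq) on wandering larvae of the third instar. Chromatin was precipitated for 2 libraries with MycN, a polyclonal antibody raised in rabbit against the fly protein. A further 2 libraries hold input DNA, from chromatin that was not precipitated. Both kinds come from the strain Y cn bw sp. The alleles listed for every library are y[1] and oc[R3.2], then cn[1], bw[1] and sp[1] with Gr22b[1], Gr22d[1] and CG33964[R4.2], and last Rh6[1], LysC[1], MstProx[1], GstD5[1] and lab[R4.2]. The sex of the larvae is given as unknown, and the larvae are whole animals, so tissues are mixed. The labels do not say whether same-kind libraries came from separate collections of larvae.

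The deposited data analysed here are 1 list of peaks with their positions, each scored by the authors' peak caller. No value belongs to a single library, so there is no spread between replicates and no test between libraries, and the sequencing depth is unknown. Errors given below are SDs over steps of 200 kb along an arm. They show how uneven an arm is and say nothing on how far a repeated experiment would depart from this one. No test was run, and a window was instead ranked among stretches of the same length on its own arm. The scale of the score is named nowhere, so scores are ranked and their medians compared, with no ratio. Read coverage is not part of the list, so a scarcity of peaks cannot be told apart from low coverage.

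Myc is a basic helix-loop-helix factor that binds DNA as a dimer with Max and drives genes of growth and ribosome production. Flies have a single Myc gene, diminutive (dm). Toward the centromere the gene-rich euchromatin of an arm passes into pericentric heterochromatin, which is rich in repeats, marked by methylated histone H3 lysine 9 and bound by heterochromatin protein 1. Genes are sparse there, yet some, such as light on 2L, are known to need this surrounding for normal expression. In the polytene nuclei of larval tissues such as the salivary gland, pericentric heterochromatin is copied fewer times than the euchromatic arms. No genome or gene annotation of Release 5 was used here, so peaks carry no gene names and no sequence is shown.

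Myc peaks were sparser in the windows than in the rest on 2L, 3L and X, and not on 3R. Over the 4 windows together there were 40.5 peaks per Mb, against 66.5 per Mb in the rest, a ratio of 0.610. In full steps of 200 kb the mean number of peaks was 8.08 ± 7.23 in the windows (SD, 40 steps) and 13.3 ± 6.33 in the rest (SD, 446 steps), so single steps overlapped widely. Steps with 3 or fewer peaks made up 15 of the 40 in the windows, or 37.5%, and 25 of the 446 in the rest, or 5.61%. The density on 3L was 17.7 per Mb in the window and 67.6 in the rest, a ratio of 0.262. On X it was 26.8 in the window and 68.9 in the rest, a ratio of 0.389. The corresponding densities on 2L were 48.3 and 65.1 per Mb, a ratio of 0.743. On 3R the window had 69.5 per Mb and the rest 64.7, a ratio of 1.07. Without 3R the ratio over the other arms was 0.463. The mean step held 3.5 ± 4.03 peaks in the 3L window and 13.5 ± 5.92 in the rest of 3L, and 5.2 ± 4.71 in the X window and 13.8 ± 6.88 in the rest of X. On 2L it held 9.7 ± 8.93 in the window and 12.99 ± 6.63 in the rest, and on 3R 13.9 ± 5.93 in the window and 12.96 ± 6.02 in the rest (SD over 10 full steps per window and 104, 112, 129 and 101 in the rest of 2L, 3L, 3R and X). The differences on 2L and 3R were smaller than these SDs.

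Ranked on its own arm, a window of this kind was the emptiest on 3L and X. No other stretch of the same length on 3L held as few as 36 peaks. The 11 stretches there held from 106 to 168 peaks. None of the 10 on X held as few as 54, and their lowest was 116. On 2L, 2 of 10 stretches held no more than the 100 of the window, the lowest with 87. On 3R, 10 of 12 stretches held no more than the 139 of the window. The share of the window covered by peaks was 1.71% on 3L and 2.51% on X, against 6.17% and 6.97% of the rest. It was 8.44% on 2L and 7.05% on 3R, against 6.20% and 6.14% of the rest. The higher share on 2L rests on a row of wide peaks, described below and picked for width. Outside that row peaks covered 4.24% of the 2L window, less than in the rest of the arm.

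**Figure D1:**
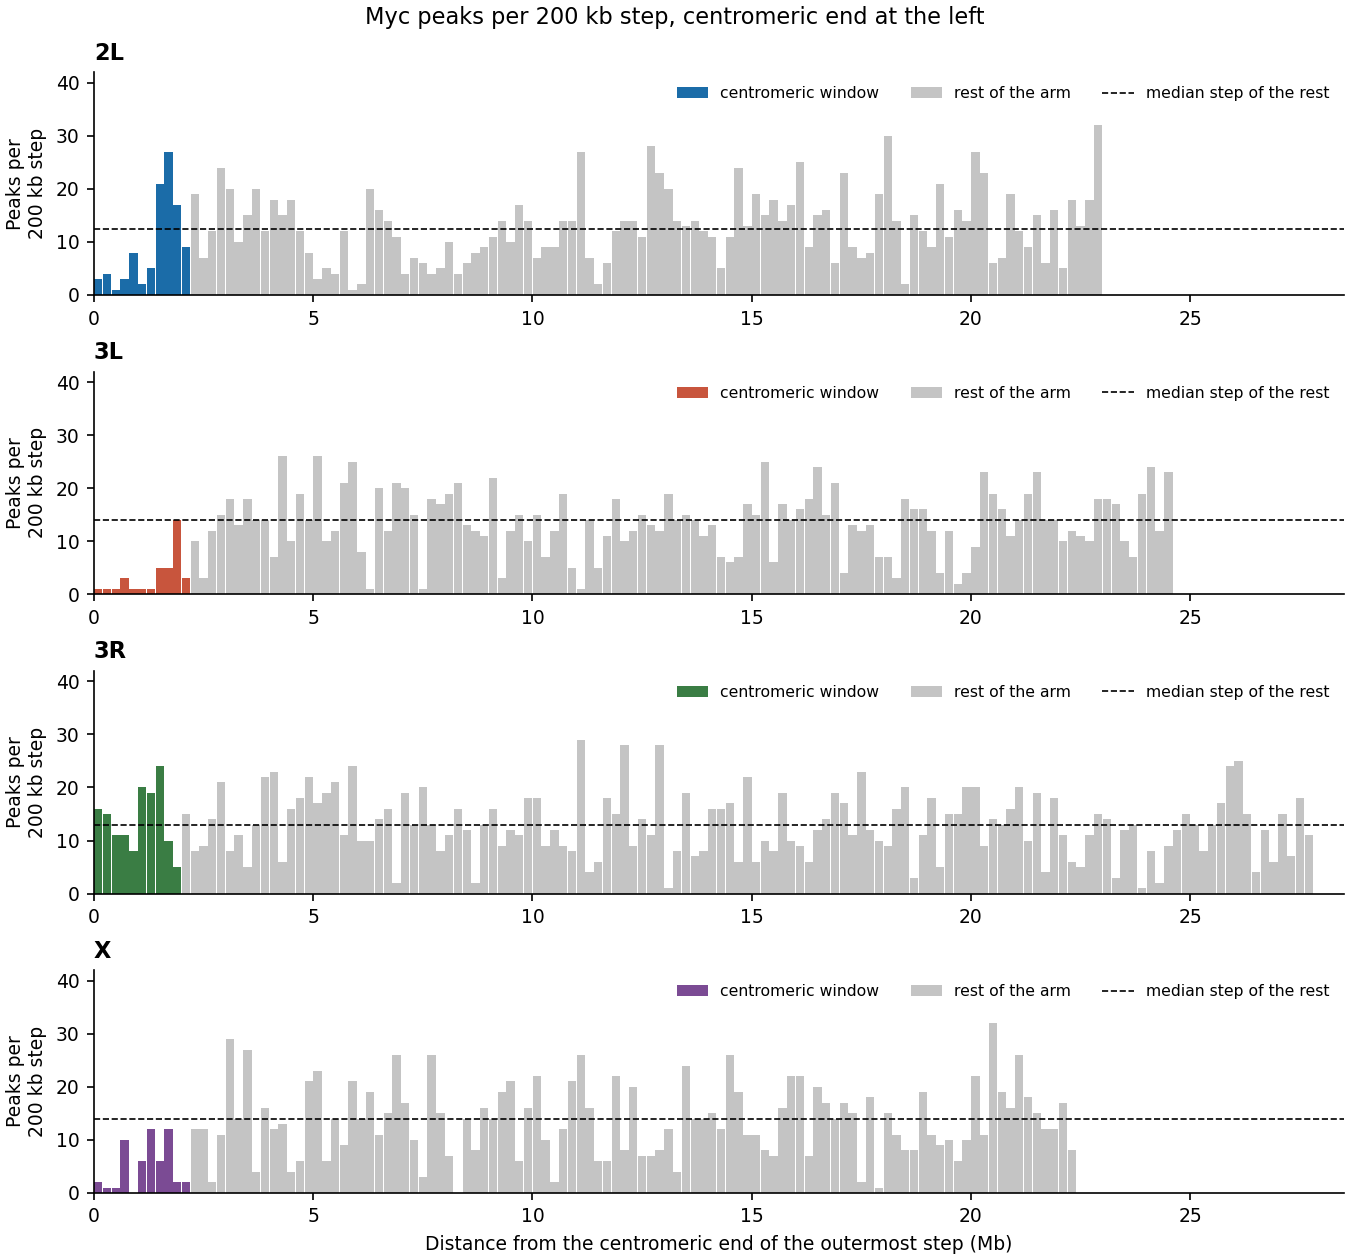
Number of Myc peaks (y axis) in each step of 200 kb along 2L, 3L, 3R and X, by distance in Mb from the centromeric end of the outermost step (x axis). Coloured bars are the window, grey bars the rest, and the dashed line is the median step of the rest (12.5, 14, 13 and 14 peaks); the outermost coloured bar on 2L, 3L and X covers only part of a step. On 2L, 3L and X most coloured bars more than 1 Mb past the boundary, those at the left, are low. Exceptions are 8 peaks in a step of 2L and 10 in a step of X. The 2 coloured bars next to the boundary on X are low too. On 3R all 10 steps lie within the range of the rest of the arm.

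Toward the end of 2L the number of peaks stood above the median step of the arm in 3 of the first 4 steps and below it in all later ones. Starting at the boundary, the first 5 steps held 9, 17, 27, 21 and 5 peaks. The steps of 27 and 21 hold the row of wide peaks described below, which raised their numbers. The next 5 steps held 2, 8, 3, 1 and 4 peaks. A last, partial step reached 68.6 kb to the end of the outermost peak and held 3. In the rest of 2L the median step held 12.5 peaks, with a range from 1 to 32. The step of 27 was matched or passed by 5 of the 104 steps of the rest, and the step with 1 peak was matched by 1 of them. Past 1 Mb from the boundary 2L had 19.7 peaks per Mb, against 79.0 in the 1 Mb before it. Spearman's rho between step number and number of peaks was −0.75 over 10 full steps, a description of 1 list in which neighbouring steps may share peak clusters.

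The strongest Myc peak near the base of 2L lay from 21166008 to 21169520, with a width of 3513 bp and a score of 594.50, above 97.8% of the peaks in the rest of the 4 arms. The next had a score of 360.83 and ran from 21343693 to 21345454. The third, from 21680909 to 21684243, was 3335 bp wide with a score of 328.23. All of these lay within 781 kb of the boundary. Past 1 Mb the highest score on 2L was 298.20. The outermost peak, from 22967821 to 22968566, scored 34.42. At the boundary, the innermost peak of the window began at 20917955 and scored 103.33, and the nearest peak outside it began at 20890940 and scored 178.44.

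A row of wide, evenly spaced peaks made up much of the 2L window. It had been singled out in an earlier account of these data, and its peaks are described here as members of the window. The 23 wide peaks lay from 516.8 to 636.2 kb past the boundary by their starts, and with 6 narrow peaks among them they gave 29 of the 100 peaks on 2L. The wide peaks covered 73.7% of the 122.6 kb they span and gave 51.7% of all bases under peaks in the window. The blank between neighbouring wide peaks was alike along the row, with a median of 1064 bp and a range from 770 to 1346 bp, apart from 1 blank of 10111 bp after the fifth. The 5 wide peaks before that blank had a median score of 135.2 and a median width of 3878 bp. The 18 after it had a median score of 156.5 and a median width of 3976 bp. The lowest score among the wide peaks, 105.92, belonged to the widest of them, from 21426771 to 21431087, which was also the widest of the window at 4317 bp. The highest, 209.25, belonged to the peak from 21531284 to 21535247. The 6 narrow peaks scored from 8.50 to 28.78 and were 207 to 431 bp wide. As background, the fly's core histone genes stand in a tandem array at the base of 2L. Whether the row lies on that array was not tested, since no annotation of Release 5 was used.

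The row is dense and was picked for widths above 3000 bp. Leaving it out therefore had to lower both the density and the median width of the 2L window. The remaining 71 peaks stood at 36.5 per Mb outside the row, a ratio of 0.561 to the rest of the arm. Their median width was 1014 bp, against 718.5 bp in the rest of 2L. Their median score was 82.0, against 57.4 in the rest. The first 1 Mb past the boundary then had 57.0 peaks per Mb, against 65.1 in the rest of the arm.

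The window on 3L had few peaks in every step but its second. Its first 4 steps held 3, 14, 5 and 5 peaks. The following steps held 1, 1, 1, 3, 1 and 1, and 1 further peak lay in the last, partial step of 30.9 kb. In the rest of 3L the median step held 14 peaks, and 3 of its 112 steps had a single peak. Low steps also occurred just before the boundary, where the nearest 5 steps, counted away from it, held 10, 3, 12, 15 and 18. Past 1 Mb from the boundary the density on 3L was 7.76 per Mb, against 28.0 in the 1 Mb before it, and Spearman's rho with step number was −0.70 over 10 full steps.

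Strong Myc peaks on 3L sat together near the boundary. Between 22710069 and 22742641 there were 5 peaks less than 20 kb apart with a median score of 343.4, among them the second strongest of the window, from 22720473 to 22721597, with 498.82. A further 6 peaks lay between 22856654 and 22905147, with a median score of 254.7. They include the strongest of the window, from 22886959 to 22888769, with 577.57, and the third strongest, from 22870779 to 22872816, with 419.26. The widest, from 23087746 to 23090332, was 2587 bp wide and scored 195.17. Beyond 1 Mb only the peak from 24457198 to 24458106 scored above 200, with 252.09. It stood alone after the longest blank of the window. The outermost, from 24529068 to 24530888, was 1821 bp wide with a score of 94.74. The innermost began at 22565241 and scored 25.85, while the nearest outside the boundary began at 22463294 and scored 40.51.

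A pair of neighbouring peaks on 3L, singled out after the values were seen for being narrow, had the same score of 163.66. Shared scores are common: 34 window peaks share theirs with another window peak, and 4 peaks of the whole list have this one. They ran from 23935657 to 23936038 and from 23940483 to 23940958 and were 382 and 476 bp wide, with 4.44 kb between them. Among 369 peaks of the rest that scored within 20 of this value, the median width was 1090 bp. Of these, 2 were as narrow as the wider one of the pair and none as narrow as the other. This is a description only, since the pair was picked for its narrow width.

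On X the peaks of the window came in clusters with long blanks between them. The first 5 steps held 2, 2, 12, 6 and 12 peaks. The next 5 held 6, 0, 10, 1 and 1, and 2 more lay in the last, partial step of 15.6 kb. The median step in the rest of X held 14 peaks, and 2 of its 101 steps had 1 peak or none, against 3 of 10 full steps in the window. The nearest 5 steps before the boundary, counted away from it, held 12, 12, 2, 11 and 29. Past 1 Mb the density was 19.7 per Mb, against 34.0 before it. Spearman's rho with step number was −0.36 over 10 full steps, but −0.14 with steps of 100 kb and −0.15 with steps counted from the outermost peak.

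The largest cluster on X, 15 peaks less than 20 kb apart from 21177207 to 21260235, held the first and second of its peaks by score. The first, from 21177207 to 21178297, scored 595.01, and the second, from 21220124 to 21222899, was 2776 bp wide with a score of 497.84. The third strongest, from 20631190 to 20631978, scored 418.79 and lay outside every cluster of 5 or more. The widest, from 20923439 to 20926324, was 2886 bp wide with a score of 162.19. Past 1 Mb the highest score was 274.13, and the outermost peak, from 22414924 to 22415566, scored 105.15. At the boundary, the innermost peak began at 20502921 with a score of 193.02, and the nearest outside it began at 20395452 with a score of 452.47.

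The window on 3R did not thin out, and it held the strongest peaks of all the windows. Its 10 steps toward the end held 5, 10, 24, 19, 20, 8, 11, 11, 15 and 16 peaks, within the range of 1 to 29 in the rest of the arm. Spearman's rho with step number was 0.18 over 10 steps and 0.09 with steps of 100 kb. Past 1 Mb there were 61.0 per Mb, against 78.0 in the 1 Mb before it, so the ratio to the rest of the arm, 1.07 for the whole window, was 0.942 past 1 Mb. The strongest peak, from 303999 to 306066, lay 1696 kb past the boundary and scored 921.42, rank 8 in the whole list. The next, from 1089506 to 1091176, scored 765.07, and the third, from 1681465 to 1683000, scored 763.38. The widest, from 1528472 to 1533792, had a score of 375.32 and a width of 5321 bp. Peaks that scored above 500 were 6 of 139 in the window, or 4.32%, against 3.70% in the rest of 3R, so their share was close to that of the arm.

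The outermost 200 kb of 3R stood low in score but not in number of peaks. Its 16 peaks had a median score of 29.1 and a highest of 191.11. Only 4 of the 124 steps in the rest of the arm with at least 3 peaks had a lower median. The step before it had 15 peaks with a median of 88.1. At the other end of the window, the 5 peaks of the first step had a median of 321.5, above every one of those 124 steps. The outermost peak, from 275 to 820, scored 24.64. The innermost began at 1996361 and scored 268.57, and the nearest outside the boundary began at 2016282 and scored 33.64.

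The median score was higher in the window than in the rest on 2L, 3L and 3R and lower on X, and the weakest peaks were the scarcest. The median score was 83.3 over the 4 windows, against 61.7 in the rest, a difference of 21.6. That difference was 13.1 without 2L and 13.8 past 1 Mb. By arm the medians were 104.2 (2L), 93.6 (3L), 77.4 (3R) and 53.8 (X), against 57.4, 58.9, 64.9 and 65.3 in the rest of these arms. The 95% interval of the difference, from the ordered window scores, ran from 20.9 to 62.8 on 2L, and it included 0 on 3L, 3R and X. This interval treats peaks as independent and takes the median of the rest as fixed. It is therefore too narrow for clustered peaks and is no test. Past 1 Mb the difference on 2L was 20.9, against 46.8 for its whole window. Without the row it was 24.6. On X it was −18.1 past 1 Mb, against −11.5 for the whole window. The median of the window lay above that of all 10 stretches of its length on 2L, above all 11 on 3L and above 11 of 12 on 3R. On X it lay below 9 of 10. The quartiles in the windows were 30.9 and 166.4, against 22.2 and 158.3 in the rest.

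Splitting the rest of the 4 arms into 4 equal score classes showed where the shortfall lay. The lowest class, up to a score of 22.2, had 6.41 peaks per Mb in the windows and 16.6 in the rest, a ratio of 0.385. The ratio was 0.623 in the second class, 0.771 in the third and 0.660 in the highest. On each of the 4 arms the lowest class had the lowest ratio, namely 0.471 (2L), 0.170 (3L), 0.652 (3R) and 0.269 (X). These ratios rest on 17 (2L), 6 (3L), 20 (3R) and 9 (X) window peaks. The next lowest were 0.255 on 3L, from 9 peaks, and 0.326 on X, from 12, so the order there rests on few peaks. In the highest class the ratios were 0.690 (2L), 0.355 (3L), 1.22 (3R) and 0.398 (X). The third class reached 1.29 on 2L, and 0.906 without the row. Without the row the highest class on 2L had a ratio of 0.446. On 3L and X all classes were below 1, so strong peaks were also fewer there.

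**Figure D2:**
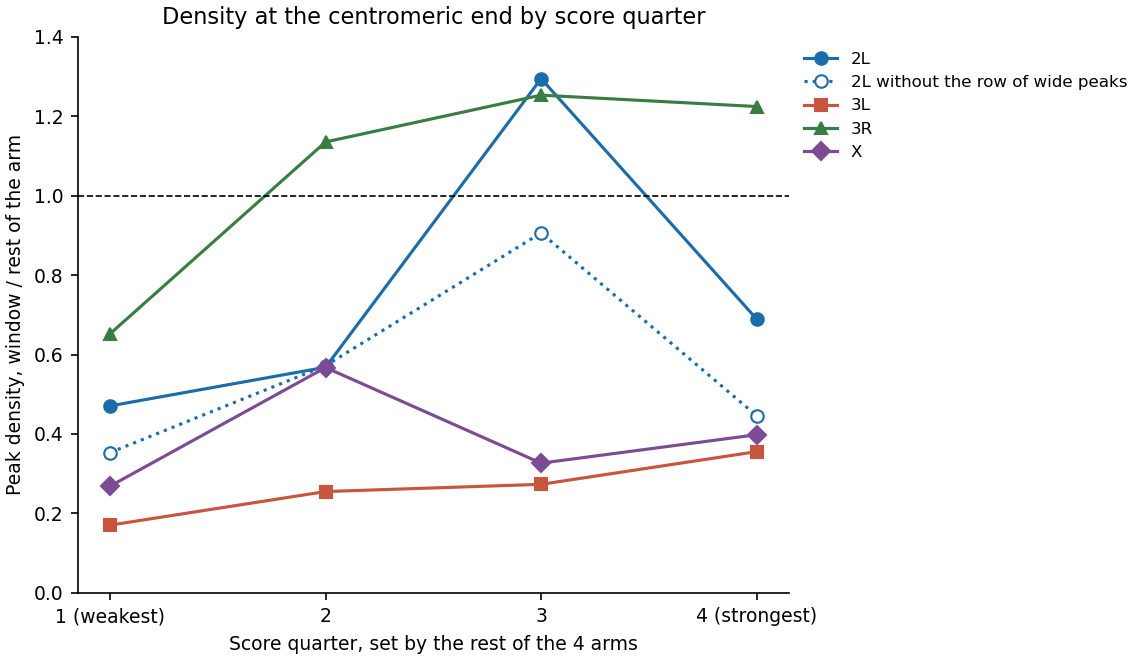
Peak density in the window divided by that in the rest of the same arm (y axis), in 4 score classes with equal shares of the rest of the 4 arms (x axis). Filled markers are arms, open markers 2L without the row of wide peaks, and the dashed line marks equal density; on every arm the weakest class has the lowest ratio, and on 3R only that class is below 1.

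On 2L, 3L and X together, peaks that scored above 200 were 6 of the 49 past 1 Mb from the boundary, or 12.2%. They were 23 of 141 in the first 1 Mb, or 16.3%, and 854 of 4286 in the rest of these arms, or 19.9%. The 49 outer peaks had a median score of 66.3 and a highest of 298.20. The score of single peaks showed little course with distance. Spearman's rho between them was −0.03 (2L) over 100 peaks, −0.10 (3L) over 36, −0.12 (3R) over 139 and −0.12 (X) over 54. These peaks share 1 list and 1 score scale.

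The step medians of score swung widely between neighbouring steps, and many rest on few peaks. Starting at the boundary, they were 103.3, 85.3, 122.7, 118.6, 106.3, 44.7, 112.0, 82.5, 99.9, 46.9 and 34.4 on 2L, where 44.7 comes from 2 peaks and 99.9 from 1. On 3R they were 321.5, 106.6, 77.6, 48.0, 74.3, 81.3, 83.7, 76.6, 88.1 and 29.1. The course on X ran 115.3, 224.7, 53.4, 120.7, 72.2 and 43.5, then an empty step, then 49.9, 84.2, 66.3 and 62.2. On X the first 2 values come from 2 peaks each, and the last 3 from 1, 1 and 2 peaks. On 3L, where most steps held 1 to 5 peaks, the medians swung between 10.6 and 252.1. Spearman's rho of step number with median score was −0.58 on 2L and 0.24 on 3L over 11 steps, and −0.45 on 3R and −0.47 on X over 10. With steps of 100 kb it was −0.29 (2L), 0.07 (3L), −0.30 (3R) and −0.31 (X). With steps counted from the outermost peak, it was −0.39 (2L), 0.07 (3L), −0.45 (3R) and −0.50 (X). The 95% intervals from Fisher's z at 200 kb included 0 for all these arms. For the number of peaks they lay below 0 on 2L and 3L and included it on 3R and X. These intervals treat neighbouring steps as independent and are no test.

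The step medians of width varied from step to step as well. They were highest on 2L in the steps that hold the row, at 3706 and 2234 bp, and again in the eighth at 2036 bp, from 3 peaks. Each of these was above all 100 steps of the rest of 2L with at least 3 peaks. On 3R they stayed between 864 and 1155 bp except in the sixth step, at 644 bp, and the outermost, at 542.5 bp. On X they ranged from 470 to 1006.5 bp and on 3L from 229 to 1821 bp. Spearman's rho of step number with median width was −0.34 (2L), 0.04 (3L), −0.49 (3R) and −0.41 (X). The interval from Fisher's z, again no test, included 0 for each arm. With steps of 100 kb the values were −0.07 (2L), 0.13 (3L), −0.28 (3R) and −0.22 (X). With steps counted from the outermost peak, 2L had −0.10, 3L −0.28, 3R −0.53 and X −0.18.

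**Figure D3:**
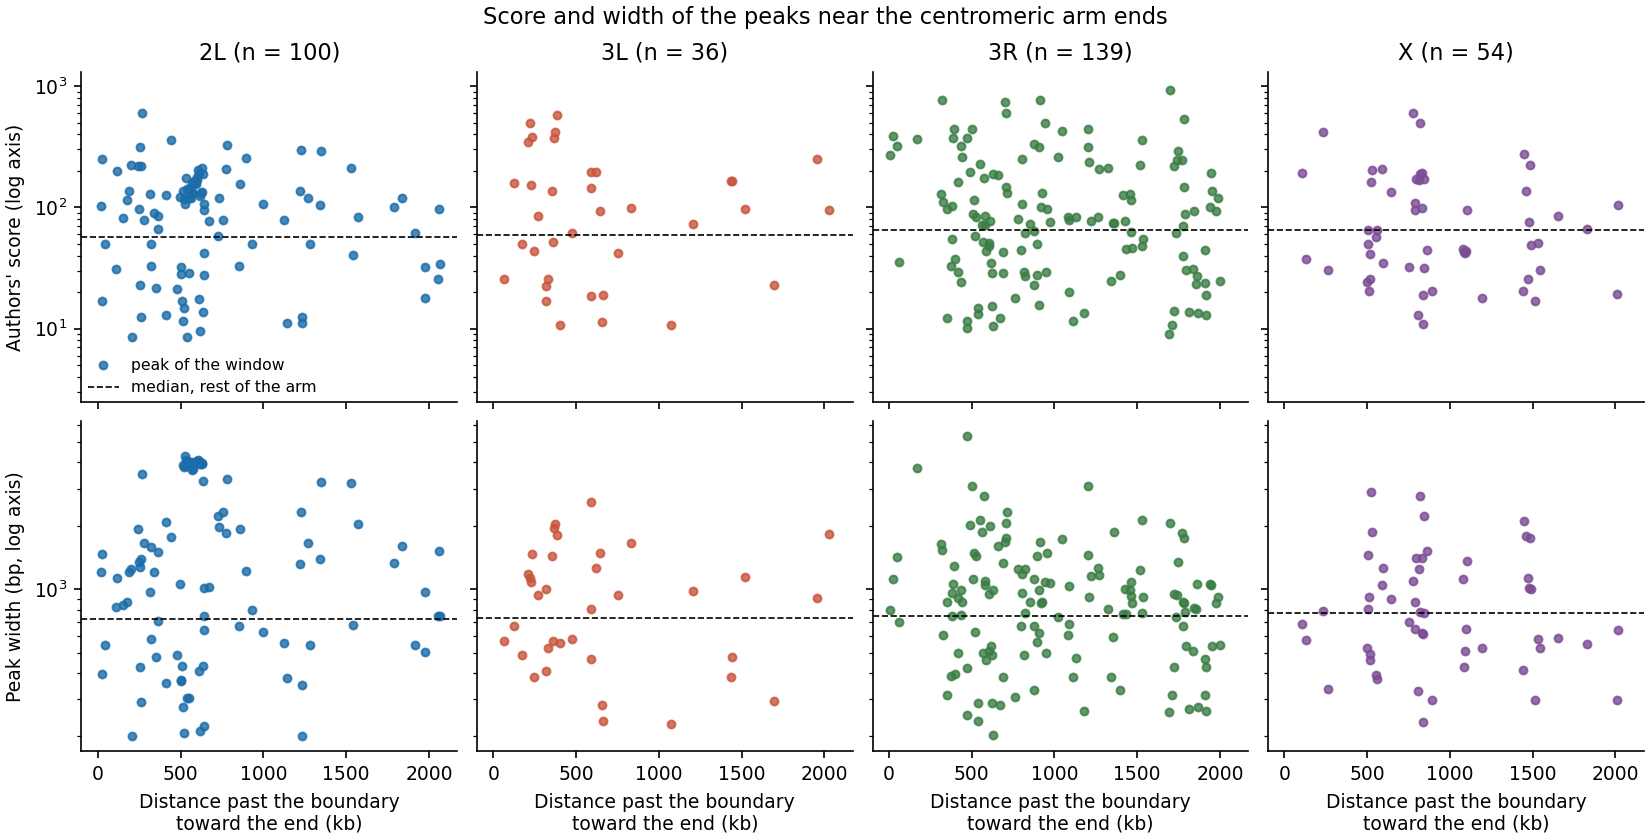
Score (upper panels) and width in bp (lower panels) of each of the 329 window peaks, both on log axes, by distance past the boundary toward the end in kb. The dashed line is the median of the rest of the arm; the dense knot of points on 2L near 516.8 to 636.2 kb is the row of wide peaks, and the highest point past 1 Mb is 298.20 (2L), 252.09 (3L), 921.42 (3R) and 274.13 (X).

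Window peaks were wider on 2L, a little wider on 3L and 3R, and not on X. The median width was 1262.5 bp (2L), 922.5 bp (3L), 871 bp (3R) and 735.5 bp (X), against 718.5, 731, 747 and 775 bp in the rest. On 2L, 3L and 3R no stretch of the same length on the arm had so high a median width, while on X 6 of 10 did. On 3L the excess was not seen past 1 Mb, where 8 peaks had a median of 692.5 bp. Over the 4 windows the median was 917 bp, against 744 bp in the rest. Peaks wider than 3000 bp numbered 31 in the windows, or 9.42%, and 150 in the rest, or 2.52%. Of the 31, 23 form the row on 2L, which was picked by the same cut of 3000 bp. The higher share in the windows rests largely on it. Of the others, 4 lie elsewhere on 2L and 4 on 3R, and none lies on 3L or X.

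Wider peaks also score higher, and Spearman's rho between score and width was 0.76 over the 329 window peaks and 0.82 over the rest. Both come from 1 peak caller and 1 signal. Each window peak was therefore set against the median width of the 50 peaks of the rest nearest to it in score. The median ratio was 1.05 on 3L, 0.998 on 3R and 1.03 on X, and about as many peaks were wider as narrower than this on these arms (19 of 36, 69 of 139 and 28 of 54). On 2L the ratio was 1.43 and 78 of 100 were wider. Outside the row it was 1.18, with 52 of 71 wider. The 23 wide peaks of the row were a median of 3.71 times as wide as peaks of like score, a description only, since they were picked for a width above 3000 bp.

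**Figure D4:**
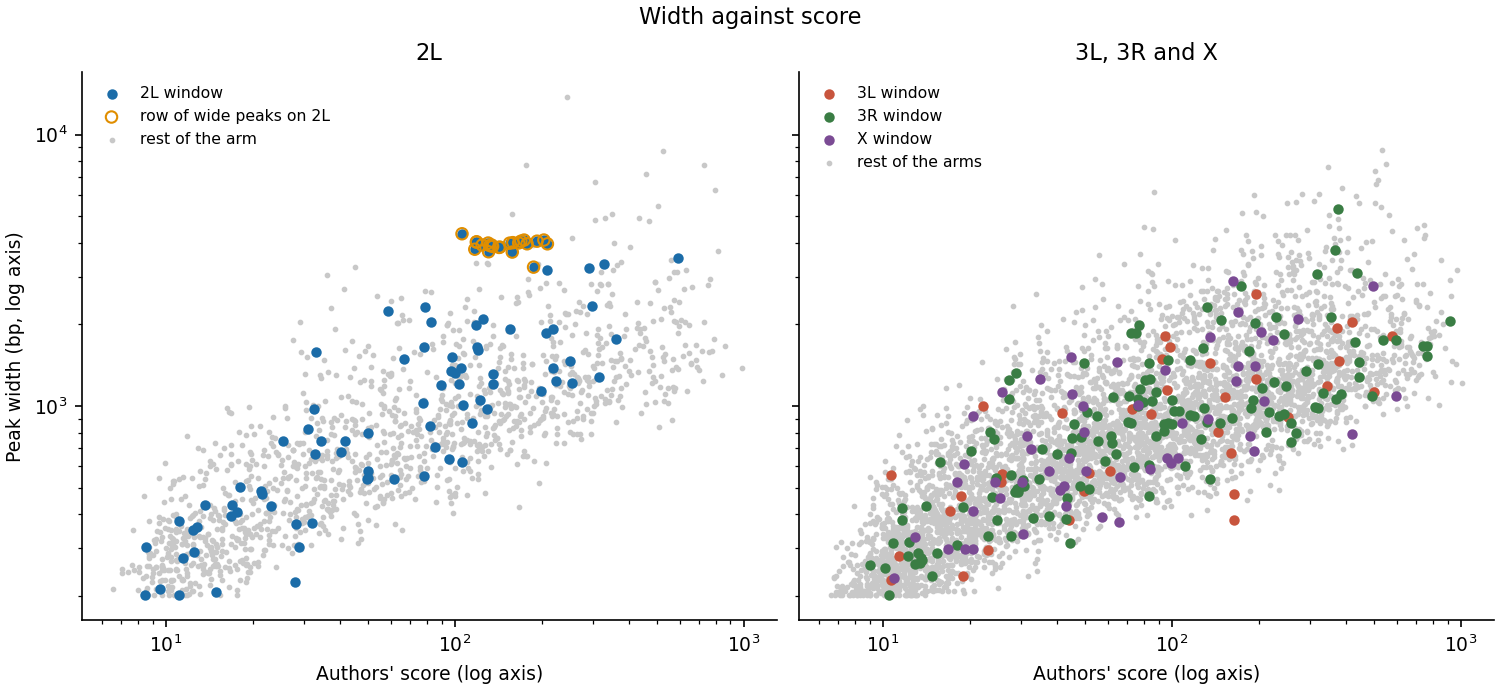
Width in bp (y axis, log) against score (x axis, log) for window peaks (coloured) and peaks of the rest of the same arms (grey), 2L on the left and 3L, 3R and X on the right. Orange rings mark the 23 wide peaks of the row on 2L, which were picked for their width and so stand high; the other coloured points mostly lie within the grey cloud.

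Much of the span of the windows on 3L and X was empty. Blanks of 100 kb or more between neighbouring peaks took up 66.5% of the window on X (8 blanks), 56.6% on 3L (6 blanks), 25.2% on 2L (3 blanks) and 20.1% on 3R (3 blanks). In the rest of these arms the share was 15.4% on X, 15.0% on 3L, 16.9% on 2L and 14.7% on 3R. The longest in the windows was 262.6 kb on 3L. It lay between a peak from 24194294 to 24194588 with a score of 23.10 and the lone strong one at 24457198. On X the longest was 247.9 kb, between peaks from 21595810 to 21596336 and from 21844200 to 21844612, which scored 18.00 and 20.48. The longest on 2L was 218.3 kb, between peaks from 22470202 to 22472237 and from 22690569 to 22691897, with scores of 82.53 and 99.90. On 3R it was 155.9 kb, between peaks from 310725 to 310984 and from 466904 to 467823, with scores of 8.99 and 55.26. Longer blanks occurred in the rest of all 4 arms, up to 350.1 kb on 2L and 332.3 kb on X.

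Lone peaks took a larger share of the window than of the rest on 3L and X, and clusters a smaller one on all 4 arms. A peak with no neighbour within 50 kb on either side was counted as lone, with the outermost peak of an arm judged on its single side. Such peaks were 10 of 36 in the window on 3L, or 27.8%, against 0.724% in the rest of that arm. On X they were 3 of 54, or 5.56%, against 0.569% in the rest. On 2L they were 2 of 100, or 2.0%, against 0.956% in the rest, and on 3R 1 of 139, or 0.719%, against 0.477% in the rest. Clusters of 5 or more peaks less than 20 kb apart held 30.6% (3L), 54.0% (2L), 62.6% (3R) and 64.8% (X) of the window peaks. In the rest they held 77.7% (3L), 76.4% (2L), 71.7% (3R) and 79.3% (X) of the peaks. The largest in the windows, 39 peaks from 21379595 to 21543689 on 2L, takes in the row. Next came 26 peaks from 1372861 to 1533792 on 3R. Pairs less than 500 bp apart made up 10.2% of intervals in the windows and 10.8% in the rest, but the arms went different ways. On 2L they were 16 of 99 intervals in the window, or 16.2%, against 10.7% in the rest. Most of these 16 pairs lie in the row, between a narrow and a wide peak, and the share without the row was not computed. On 3L they were 1 of 35, or 2.86%, against 10.4% in the rest. On 3R they were 10 of 138, or 7.25%, against 9.37% in the rest, and on X 6 of 53, or 11.3%, against 13.2% in the rest.

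The opposite, telomeric ends of the same arms did not thin out. Their outermost 2 Mb held 73.5 (2L), 80.5 (3L), 63.5 (3R) and 80.0 (X) peaks per Mb, with a median score of 64.1 and a median width of 725 bp over the 4 ends. Peaks were also listed on heterochromatin scaffolds kept apart from the arms. On 3LHet there were 7.47 peaks per Mb, from 18 peaks. The outer part of the 3L window had 7.76, from only 8 peaks. On 3RHet there were 6.31 per Mb, from 15 peaks, against 61.0 in the outer part of the 3R window. The scaffolds 2LHet and XHet held 4 and 3 peaks, too few to compare.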

How the data were processed

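Myc ChIP and input DNA were sequenced in 2 libraries each. The values analysed are 1 deposited peak list on FlyBase Release 5, which names MACS as its source, per the file headers. BWA, MACS2, the build BDGP5 and CASAVA in versions 1.7.0.3 and 1.7.0.2 appear, with no role, per the submitters' processing notes. How peaks were thresholded and whether libraries were pooled is not given in the sources used here. Each deposited peak carries a score from the authors, on a scale that is not named. The other deposited columns used are the positions.

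Members were taken by position, with the boundaries given in the report, and steps of 200 kb were counted from each boundary. The span of an arm ended at its outermost peak, since sequence lengths were not used. Medians, densities, ranks among full steps or stretches of equal length, blanks and width against 50 peaks of like score were computed with Python 3.11.15, pandas 2.3.3, numpy 2.4.6 and scipy 1.17.1, and checked on simulated lists of known density ratio, score shift and width shift. Named peaks on each arm are the 3 strongest, the widest, the outermost, those on either side of the boundary and those around the longest blank. The row on 2L, from an earlier account, and the narrow pair on 3L, picked after the values were seen, were described besides. Members, lists and this rule were chosen with earlier results of these data known. Genes were not assigned, since the gene table used is of Release 6.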

Additional observations from a re-analysis of the deposited data

How the results depend on the processing

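Of 86 alternatives, all planned, to 28 results, 70 kept the direction and stayed within the counting interval of the value (95%, from an exact binomial for a density ratio, from ordered values for a median, from Fisher's z for a correlation over steps) or within 1.5 times a count; these intervals treat peaks as independent and are too narrow for clustered peaks. The number of peaks was 329 and by construction fell to 195 in the stronger part by score. The density ratio of 0.610 over the 4 arms was 0.720 in the stronger part, 0.402 in the part of the windows past 1 Mb, 0.728 without 3L, 0.463 without 3R and 0.686 without X. On 2L the ratio of 0.743 was 0.997 in the stronger part, 0.302 past 1 Mb and 0.561 without the row. The stronger part includes all 23 wide peaks of the row, and its ratio without them was not computed. Past 1 Mb it was 0.115 on 3L and 0.286 on X, and on 3R it crossed 1, at 0.942 against 1.07. The median width over the 4 arms was higher in the windows by 173 bp, by 58 bp past 1 Mb and by 58.5 bp against peaks of like score. On 3L that difference was 191.5 bp and turned to −38.5 bp past 1 Mb, where 8 peaks remain. The correlation of step number with median width on 3L was 0.04, and −0.28 with steps counted from the outermost peak. The cause of these shifts was not tested. No paired analysis was possible because peaks are not tied to libraries, which also means that leaving out a replicate could not be tried. The unknown depth limits what the low numbers of peaks can show.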
